A study of Saccharomyces cerevisiae BY4741 with 2 samples.

Results

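The genes described here encode the proteins of the cytosolic ribosome of the budding yeast Saccharomyces cerevisiae. They were taken by name: every row called RPL or RPS followed by a number and an optional A or B, plus the stalk genes RPP0, RPP1A, RPP1B, RPP2A and RPP2B. The rule found 42 genes among 2809 distinct names in the deposited rows. The RefSeq annotation of R64 holds 137 genes that fit it. Another 5 of these stand on rows shared with a second gene. The other 90, the 5 stalk genes among them, matched no row name and so were not analysed here.

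Strand-specific sequencing of total RNA depleted of ribosomal RNA was carried out in a wild-type strain and in a mutant strain without DBP2, which encodes a DEAD-box RNA helicase. Both strains were MATa haploids grown at 30 °C to mid-log phase in rich medium with 2% glucose. The wild type (BY4741) carried his3Δ1 and leu2Δ0 together with met15Δ0 and ura3Δ0. The mutant carried dbp2::KanMx with ura3Δ0, leu2Δ0 and his3Δ0, and was further given as TRP1, met- and lysΔ, so that a lysine marker also set the strains apart. The labels list 2 replicates of each strain, but 1 value per gene and strain was analysed. These values hold no spread between replicates, so the differences below are descriptions without a test or a standard error.

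The yeast ribosome consists of a large (60S) subunit, whose proteins are named RPL or RPP, and a small (40S) subunit, whose proteins are named RPS. After an ancient duplication of the genome most of these proteins kept a pair of genes, called A and B, which encode the same or nearly the same protein. Ribosomal protein genes are among the most strongly transcribed genes of growing yeast and are bound by the activator Rap1 together with Fhl1 and Ifh1, under control of the TOR and protein kinase A pathways. They also make up a large part of the intron-containing genes of this species.

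Of the 42 genes, 27 belong to the large and 15 to the small subunit, 35 carry an A or B suffix and 7 do not. All 40 genes that stand on a single row were above 0 in both strains and averaged 1 FPKM or more (fragments per kilobase of transcript, scaled for depth), so none was lost to the filter on low values. The remaining 2 stand on 2 rows each and were not compared; of these, RPL16A is described apart. The genes compared lie on chromosomes VI, VIII, IX, X, XI, XIV, XV and XVI. Differences are given as the log2 of the value in the mutant over that in wild type, each with 1 FPKM added, while folds are plain ratios of the values.

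The deletion was visible in the data. DBP2 was listed on 3 rows, at 1539.7 FPKM, 348 FPKM and 5.62 FPKM in wild type and at 2.52 FPKM, 3.70 FPKM and 3.33 FPKM in the mutant. Over the 2211 genes compared, the median log2 ratio was -0.08.

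Ribosomal protein genes were abundant in both strains. The 40 genes compared had a median of 3773 FPKM in wild type and of 3645 FPKM in the mutant, compared with medians of 87.5 FPKM and 87.9 FPKM over all genes compared. They made up 28.6% of the summed FPKM of the protein-coding genes compared in wild type and 27.7% in the mutant. Among the 50 genes with the highest values, 19 in wild type and 21 in the mutant were ribosomal protein genes. The levels spanned a wide range, from RPL7B at 47.3 FPKM to RPL27A at 33123 FPKM in wild type and from 21.4 FPKM to 17094 FPKM, the latter for RPL29, in the mutant.

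Most of the genes had lower values in the mutant, as did most abundant genes of any kind. Of the 40, 31 were lower (77.5%, against 54.0% of all genes compared), 10 were lower by 2-fold or more (25.0%, against 10.9%) and 0 were higher by 2-fold or more (against 8.86%). The median log2 ratio was -0.51, and the quartiles were -0.99 and -0.03. Levels and ratios were related across the genes compared, however. Of the 92 other genes that averaged 1000 FPKM or more, 82.6% were lower, 32.6% were lower by 2-fold or more and 6.52% were higher by that much, with a median log2 ratio of -0.60. The 32 ribosomal protein genes at that level had a median of -0.39, with 6 lower by 2-fold or more. The 8 below that level had a median of -0.95, with 4 lower by 2-fold or more. Relative to the other genes nearest in mean FPKM, the 32 had a median of 0.18, with 20 above and 12 below their neighbours. By the same measure the 8 stayed lower, with a median of -0.55. Of these 8, 6 were below their neighbours, 3 of them by at least 2-fold, and 2 were above. The summed FPKM of the protein-coding genes compared was 1.38-fold lower in the mutant, while the total of all deposited rows was 5210212 FPKM in wild type against 1724406 FPKM in the mutant (3.02-fold lower). FPKM are relative values, so less of these RNAs per cell and a change in the remaining RNA cannot be told apart.

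**Figure D1:**
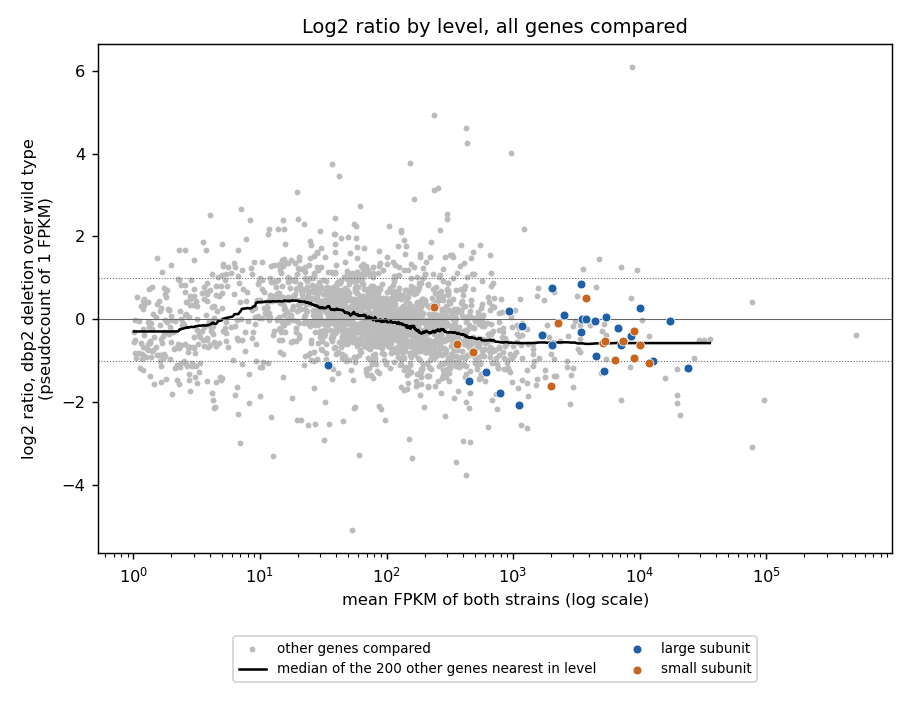
Log2 ratio (vertical axis, pseudocount of 1 FPKM) against the mean FPKM of both strains (horizontal axis, log scale) for the 2211 genes compared, with ribosomal protein genes in colour by subunit; the black line is the median of the 200 other genes nearest in level and dotted lines mark 2-fold. The ribosomal protein genes lie on both sides of the line, 22 above and 18 below it.

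The direction of the set as a whole depended on how the strains were scaled to each other. After scaling the strains to equal summed FPKM of the protein-coding genes (equal coding sums), which raised the log2 ratio of abundant genes by 0.47, 21 of the 40 were lower (against 30.2% of all genes), 4 were lower by 2-fold or more (against 4.57%) and 2, RPL5 and RPL17B, were higher by 2-fold or more (against 19.9%). The median log2 ratio was then -0.05. These genes are themselves a large part of that sum. Taken relative to the 200 other genes nearest in mean FPKM, 22 were above and 18 below their neighbours, 3 and 5 of them by at least 2-fold (against 9.09% above and 7.6% below over all genes), and the median was 0.06. The order of the genes does not change with a factor applied to 1 strain, apart from the pseudocount, and it is described next.

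The lowest ratios belonged mainly to large subunit genes that have a paralog. RPL9B, which encodes uL6, was 1785 FPKM in wild type against 428 FPKM in the mutant, a 4.17-fold lower value. RPL8A, which encodes eL8, was 1232 FPKM and 357 FPKM (3.45-fold lower). RPS6A, which encodes eS6, a protein phosphorylated under control of the TOR pathway, was 3026 FPKM and 990.1 FPKM (3.06-fold lower). RPL1A, which encodes uL1 of the mobile L1 stalk, was 662 FPKM and 235 FPKM (2.82-fold lower). These 4 genes were also lower by 2-fold or more under equal coding sums and relative to genes of similar level.

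The other 6 genes lower by 2-fold or more as deposited were within 2-fold of wild type under equal coding sums. RPL27A, the most abundant member in wild type, was 33123 FPKM against 14679.6 FPKM in the mutant. Both genes for uL2, a protein next to the peptidyl transferase centre, were among them, with RPL2A at 7388 FPKM and 3121 FPKM and RPL2B at 17071 FPKM and 8454 FPKM. RPL18B was 864 FPKM and 358 FPKM. RPS20, whose protein uS10 sits in the head of the small subunit, was 15990.5 FPKM and 7709 FPKM. RPL7B had the lowest level of all members, 47.3 FPKM and 21.4 FPKM. Relative to genes of similar level it stayed lower by 2-fold or more, at a log2 difference of -1.41. It is the sole member whose annotated span overlaps another gene, the small nucleolar RNA gene SNR59 inside it. RPS4B lay just short of 2-fold, at 8485 FPKM and 4289 FPKM (1.98-fold lower).

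At the other end, 9 genes had higher values in the mutant. RPL5, whose protein uL18 binds the 5S ribosomal RNA, was 2442 FPKM in wild type against 4429.6 FPKM in the mutant, a log2 ratio of 0.86. RPL17B, which encodes uL22 of the exit tunnel wall, was 1516 FPKM and 2538 FPKM (0.74), and RPS21B was 3102 FPKM and 4410.3 FPKM (0.51). These 3 were also the genes 2-fold or more above others of similar level, by log2 differences of 1.44, 1.31 and 1.10. The remaining 6 lay closer to wild type. RPS24B was 215 FPKM in wild type against 263 FPKM, and RPL39 was 9140.2 FPKM against 11013 FPKM. RPL34B was 857 FPKM against 992 FPKM, and RPL36B was 2429 FPKM against 2604 FPKM. RPL16B and RPL25 were nearly level, at 5353 FPKM against 5560.3 FPKM and at 3727 FPKM against 3768 FPKM. From the lowest to the highest ratio, RPL9B to RPL5, the members spanned log2 values of -2.06 to 0.86.

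**Figure D2:**
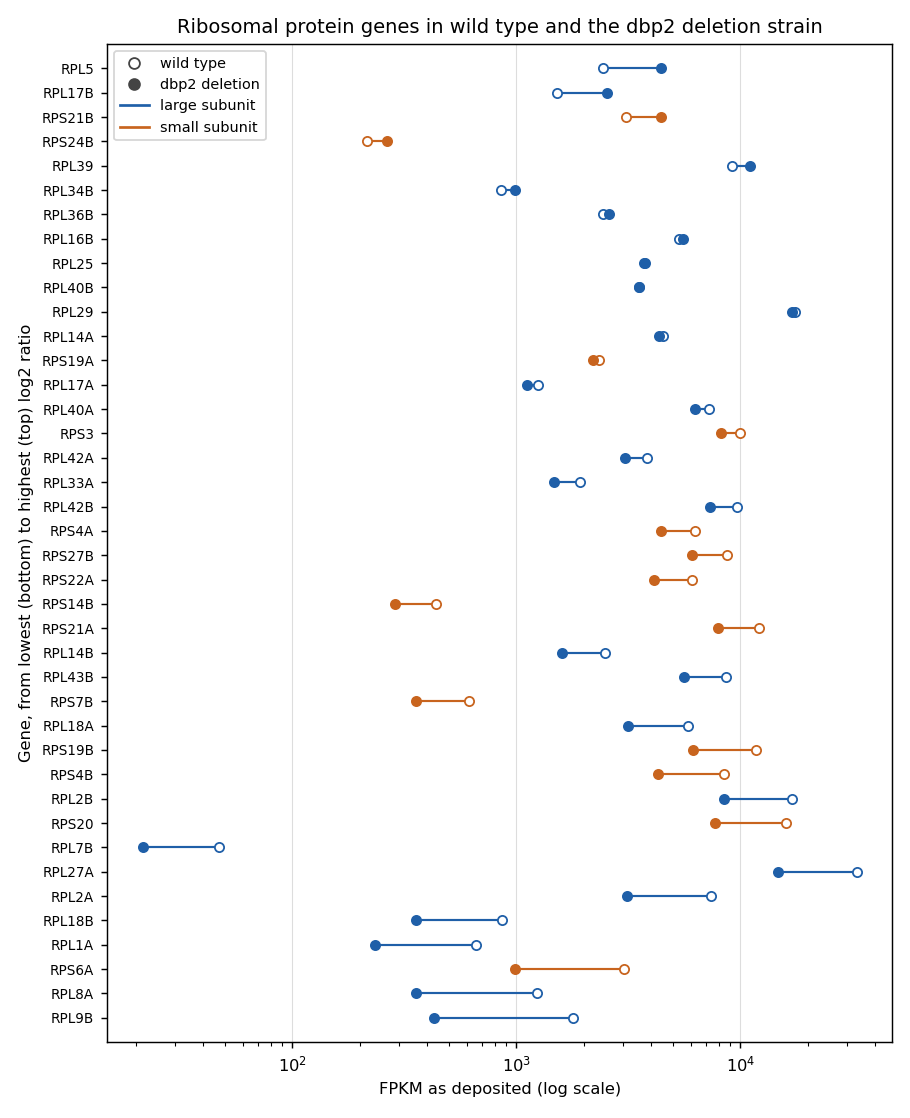
FPKM as deposited (horizontal axis, log scale) of the 40 genes compared, 1 line per gene in order of the log2 ratio, with an open circle for wild type, a filled circle for the mutant and colour for the subunit. The filled circle lies to the left in 31 genes and to the right in 9, from RPL9B (1785 and 428 FPKM) at the bottom to RPL5 (2442 and 4429.6 FPKM) at the top.

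Large and small subunit genes had overlapping ratios. The same shares over all genes (54.0% lower, 10.9% lower by 2-fold or more and 8.86% higher by 2-fold or more) apply to the counts by subunit as deposited. Of 26 large subunit genes, 19 were lower, 8 lower by 2-fold or more and 0 higher by 2-fold or more, with a median log2 ratio of -0.35. Of 14 small subunit genes, 12 were lower, 2 (RPS6A and RPS20) lower by 2-fold or more and 0 higher by 2-fold or more, with a median of -0.58. Under equal coding sums 11 of the 26 were lower, 3 by 2-fold or more, and 2 were higher by 2-fold or more. Of the 14, 10 were then lower, 1 by 2-fold or more. The shares over all genes at that scaling were 30.2% lower, 4.57% lower by 2-fold or more and 19.9% higher by 2-fold or more. Medians relative to genes of similar level were 0.22 for the large and -0.01 for the small subunit. The interquartile range was 1.09 log2 units in the large subunit and 0.55 in the small subunit. Summed FPKM were 154123 in wild type and 113207 in the mutant for the large subunit genes (1.36-fold lower), and 89271 and 57452 for those of the small subunit (1.55-fold lower). Between the ends of the order, the small subunit genes RPS7B and RPS14B were among the less abundant, at 618 FPKM in wild type against 355 FPKM and at 438 FPKM against 287 FPKM. RPS27B was 8729 FPKM against 6106 FPKM, and RPS3, whose protein uS3 lines the entry of the mRNA channel, was 10013 FPKM against 8179 FPKM. In the large subunit RPL43B was 8665 FPKM against 5591 FPKM and RPL33A was 1919 FPKM against 1475 FPKM. As deposited, all 6 of these genes had lower values in the mutant, within 2-fold of wild type.

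Of the 6 genes without a paralog on single rows, 3 had lower values and 3 higher ones. RPS20 alone of these was lower by 2-fold or more (16.7%, against 10.9% of all genes compared). Their median log2 ratio was -0.01, against -0.58 over the 34 genes with a paralog. Of those 34, 28 were lower (82.4%, against 54.0% of all genes) and 9 lower by 2-fold or more (26.5%, against 10.9%). Relative to genes of similar level, the medians without and with a paralog were 0.57 and -0.01. The large subunit genes without a paralog were RPL5, RPL39, RPL25 and RPL29. RPL29 was 17527 FPKM in wild type against 17094 FPKM in the mutant, so that it replaced RPL27A as the most abundant member. RPL39 encodes a small protein of the exit tunnel, and RPL25 encodes uL23, a docking site at the tunnel exit for factors that bind nascent chains. The small subunit genes without a paralog, RPS20 and RPS3, both had lower values as deposited. Under equal coding sums RPS3 was higher, at a log2 ratio of 0.18, while RPS20 was lower, at -0.58.

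**Figure D3:**
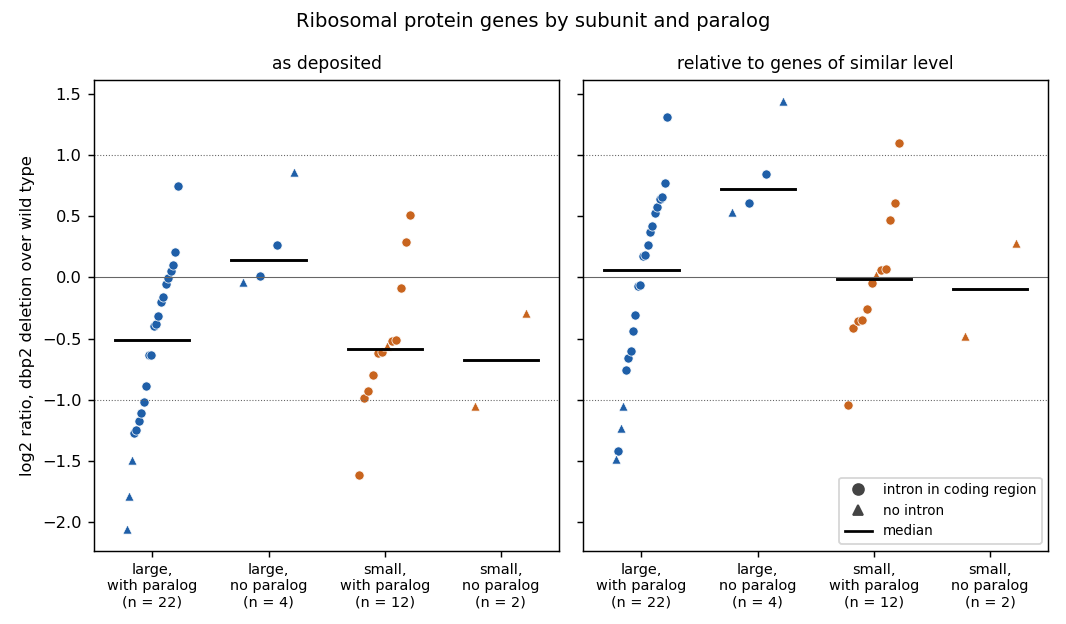
Log2 ratio of each gene (vertical axes) by subunit and paralog, as deposited (left) and relative to genes of similar level (right), with circles for genes with an intron in the coding region, triangles for genes without one and black lines for medians. The 4 large subunit genes without a paralog lie between -0.04 and 0.86 on the left, and the 22 with one between -2.06 and 0.74.

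Introns interrupt the coding region of 33 of the 42 genes (78.6%), against 3.10% of the other nuclear protein-coding genes in the annotation. The 34 introns of these 33 genes had a median length of 403.5 bp. Of these, 24 begin with GTATGT and 32 contain TACTAAC, the usual yeast branch point. Of the 190 introns of the other nuclear protein-coding genes, 137 begin with GTATGT and 147 contain TACTAAC. Among the genes compared, 32 had an intron, with a median log2 ratio of -0.45 and 6 lower by 2-fold or more. The 8 without an intron had a median of -0.81 with 4 lower by 2-fold or more. The share lower by 2-fold or more over all genes compared was 10.9%. Among genes with a paralog, the 4 without an intron were RPL9B, RPL8A, RPL1A and RPS22A, with a median of -1.64, against -0.51 in the 30 with one. RPS22A, which encodes uS8, differed from the other 3 of these, at 6067 FPKM and 4112 FPKM (1.48-fold lower). The genes with neither a paralog nor an intron were RPL5, RPL29, RPS3 and RPS20, with a median of -0.16. All these ratios are as deposited. Relative to genes of similar level, the medians with and without an intron were 0.12 and -0.23. By that measure 2 genes with an intron and 3 without one were lower by 2-fold or more (against 7.6% of all genes). Among genes with a paralog, the medians by that measure were 0.06 with an intron and -1.14 without one.

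Near-identical copies limit how well reads can be assigned to a gene, and how the reads were assigned is not given in the sources used here. Coding sequences in the R64 genome were compared to measure this. The 17 genes at least 95% identical to their paralog had a median log2 ratio of -0.93. Of these, 16 were lower (94.1%, against 54.0% of all genes) and 7 lower by 2-fold or more (41.2%, against 10.9%). The 17 genes with a less similar paralog had a median of -0.38, with 12 lower (70.6%). RPL9B and RPL27A, 2 of those 17, were lower by 2-fold or more (11.8%, close to the 10.9% of all genes). Of all 40 genes, 16 shared no 50-base stretch of coding sequence with any other place in the genome, and their median was -0.23. The 24 that shared at least 1 such stretch had a median of -0.71. All these ratios are as deposited. Under equal coding sums 12 of the 17 more similar genes were lower, 3 by 2-fold or more, with a median of -0.46. Of the 17 less similar ones 8 were then lower, 1 by 2-fold or more, with a median of 0.09. The shares over all genes were 30.2% and 4.57%. Medians without and with a shared stretch were 0.24 and -0.25 at that scaling. Among the lowest 4, the share of 50-base stretches found elsewhere was 14.0% in RPL9B, 6.93% in RPL8A, 72.1% in RPS6A and 81.0% in RPL1A, and the part that this had in the values was not tested.

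The RPS21, RPL17 and RPL42 pairs are shown because they stand at the ends of this range. The first and second share no 50-base stretch, and the third was the most similar of the pairs with both copies compared. Each line gives the 60 coding bases in which the copies differ most, with differing bases in capitals.
RPS21A: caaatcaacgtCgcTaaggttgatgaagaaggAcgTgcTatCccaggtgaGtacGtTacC
RPS21B: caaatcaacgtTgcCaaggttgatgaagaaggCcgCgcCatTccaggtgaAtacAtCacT
RPL17A: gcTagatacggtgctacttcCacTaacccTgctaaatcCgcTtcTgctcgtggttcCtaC
RPL17B: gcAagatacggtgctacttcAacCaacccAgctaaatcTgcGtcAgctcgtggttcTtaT
RPL42A: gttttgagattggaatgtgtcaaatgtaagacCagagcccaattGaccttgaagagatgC
RPL42B: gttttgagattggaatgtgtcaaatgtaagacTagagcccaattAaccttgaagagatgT
These stretches hold 10, 9 and 3 differences, and the whole coding sequences were 90.9%, 92.4% and 98.1% identical.

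Both copies of 9 pairs were compared, which gives the share of each copy within a strain regardless of scaling. The copy with the higher value in wild type was also the higher one in the mutant in 8 of 9 pairs. The A copy's share was higher in the mutant in 5 pairs and lower in 4. It moved by over 10 percentage points in RPS21 and RPL17 alone, the pairs with no shared 50-base stretch. RPS19, where 12.2% of such stretches are found elsewhere, followed at 9.69 points. The log2 ratios of the copies differed by 1.12 in RPS21, 0.90 in RPL17 and 0.84 in RPS19. RPS21A, the main copy, was 12187 FPKM in wild type against 7953 FPKM in the mutant while RPS21B was 3102 FPKM and 4410.3 FPKM, so that the share of the A copy was 79.7% and 64.3%. RPL17A was 1252 FPKM and 1121 FPKM while RPL17B was 1516 FPKM and 2538 FPKM, shares of 45.2% and 30.6%. As deposited, the B copy was higher and the A copy lower in the mutant in both pairs, but RPL17A was higher under equal coding sums (log2 ratio 0.31).

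In 3 pairs the share of the A copy was larger by 8.09 to 9.69 points in the mutant. RPS19B, the main gene for eS19, was 11759 FPKM in wild type against 6181 FPKM in the mutant and RPS19A was 2337 FPKM and 2202 FPKM, shares of 16.6% and 26.3%. RPL14A was 4517 FPKM and 4354 FPKM and RPL14B 2489 FPKM and 1606 FPKM, shares of 64.5% and 73.1%. The RPS4 pair was the one in which the order changed, with RPS4A at 6306 FPKM and 4416 FPKM and RPS4B at 8485 FPKM and 4289 FPKM, shares of 42.6% and 50.7%. In the other 4 pairs the shares of both strains lay closer. RPL40, which encodes a fusion of ubiquitin to eL40, had an A share of 67.3% and 64.2%, and RPL42 one of 28.3% and 29.5%. RPL18 had 87.1% and 89.8%, and RPL2 had 30.2% and 27.0%.

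**Figure D4:**
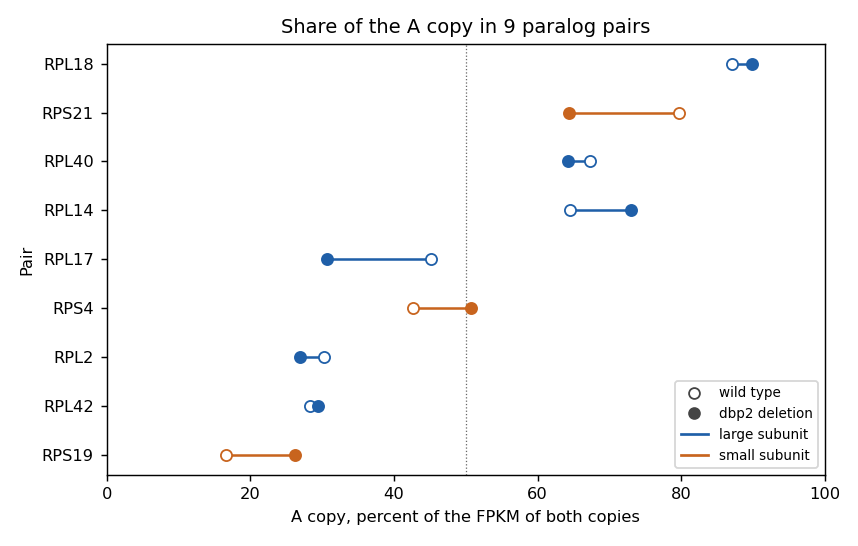
Share of the A copy in the summed FPKM of both copies (horizontal axis, percent) for the 9 pairs with both copies compared, with an open circle for wild type, a filled circle for the mutant and colour for the subunit. RPS4 is the 1 pair whose circles lie on opposite sides of the dotted line at equal shares, at 42.6% and 50.7%.

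Summed over both copies, 8 of 9 pairs were lower in the mutant as deposited (against 54.0% of all genes compared). The sums were 2.11-fold lower for RPL2 and 1.91-fold lower for RPL18, but 1.10-fold lower for RPL40. As deposited, the RPL17 sum was the higher one, at 2767 FPKM in wild type against 3659 FPKM in the mutant. Equal coding sums multiply the mutant values by 1.38. The sums of RPL2, RPL18, RPS4 and RPS19 stayed lower at that scaling. Those of RPL42, RPS21, RPL14 and RPL40, lower by less than 1.38-fold as deposited, were then higher. A sum over copies depends little on which copy a shared read was given to, though it does on whether such reads were kept.

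RPL16A, which encodes uL13, stood on rows of 4115 FPKM and 912 FPKM in wild type, which were 1087 FPKM and 788 FPKM in the mutant, a 3.79-fold and a 1.16-fold lower value. Its paralog RPL16B was 1.04 times its wild-type value. The 4 rows shared with a second gene went both ways. RPL21B with RPS9A was 1748 FPKM in wild type against 1364 FPKM, and RPS14A with RIM1 was 1439.6 FPKM against 1395 FPKM. RPL22B with MOB2 was 816 FPKM against 290.2 FPKM, and RPS27A with APE2 was 871 FPKM against 1546 FPKM. The gene that each such value reflects cannot be told apart.

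Bases before the start codon were searched for the core of the Rap1 site that ribosomal protein promoters are known for. In the 500 bases upstream, ACCCATACA on either strand was found for 6 of the 42 genes (14.3%), against 1.12% of all nuclear protein-coding genes. The looser ACCCNNACA, which includes it, was found for 15 (35.7%), against 5.48%. The 14 genes compared that hold the looser form had a median log2 ratio of -0.23, and the other 26 had one of -0.58. RPL9B, which had the lowest ratio, and RPL5 and RPL17B, which had the highest, hold no match. Genes with lower and with higher values hold the looser form. RPL8A, RPS6A and RPL2B are among those lower by 2-fold or more. RPL25, RPL34B, RPL36B and RPS21B are among those with higher values, at log2 ratios of 0.02, 0.21, 0.10 and 0.51. The sites of these lower and higher genes are shown in 48 bases read 5′ to 3′ on the strand of the gene, with matches in capitals.
RPL8A, chrVIII:36232-36279, minus strand: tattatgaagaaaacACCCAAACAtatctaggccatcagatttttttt
RPS6A, chrXVI:378793-378840, minus strand: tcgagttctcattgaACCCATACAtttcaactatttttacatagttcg
RPL2B, chrIX:316339-316386, plus strand: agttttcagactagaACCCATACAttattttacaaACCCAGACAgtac
RPL25, chrXV:79935-79982, plus strand: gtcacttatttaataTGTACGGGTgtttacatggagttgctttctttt
RPL34B, chrIX:257483-257530, minus strand: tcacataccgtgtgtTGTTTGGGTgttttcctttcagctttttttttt
RPL36B, chrXVI:76521-76568, minus strand: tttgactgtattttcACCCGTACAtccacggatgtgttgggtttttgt
RPS21B, chrX:157583-157630, minus strand: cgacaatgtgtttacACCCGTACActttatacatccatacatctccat
RPL2B holds a pair of matches. Over the 15 genes the match farthest upstream lay 230 to 459 bases before the start codon.

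Genes that act on the ribosomal proteins or on their transcription were examined from lists chosen with earlier results of these data known. Of 23 regulators of ribosomal protein gene transcription, 13 were compared, with a median log2 ratio of 0.04, 2 lower by 2-fold or more (15.4%, against 10.9% of all genes compared) and 0 higher by 2-fold or more (against 8.86%). The activator gene RAP1 was 86.5 FPKM in wild type against 83.2 FPKM in the mutant. FPR1, which encodes the rapamycin-binding proline isomerase, was 2586 FPKM and 977 FPKM, and LST8, which encodes a subunit of the TOR complexes, was 399 FPKM and 196 FPKM. The kinase genes SCH9 and RIM15 were higher, at 35.5 FPKM and 67.9 FPKM and at 14.5 FPKM and 27.1 FPKM. Under equal coding sums 3 of the 13 were higher by 2-fold or more, where 19.9% of all genes were, and 0 lower by 2-fold or more.

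Of 15 genes for dedicated chaperones and transport factors of ribosomal proteins, 6 were compared, with a median of -0.14. TSR4, whose product escorts the small subunit protein Rps2, was 504 FPKM and 242 FPKM, the 1 member lower by 2-fold or more, and 0 were higher by 2-fold or more. SQT1, which encodes the chaperone of Rpl10, was 1063 FPKM and 724 FPKM. Of 19 genes for enzymes that modify ribosomal proteins, 6 were compared, with a median of -0.61. MDM20, which encodes a subunit of the NatB acetyltransferase, was 271 FPKM and 102 FPKM, the 1 member lower by 2-fold or more, with 0 higher by 2-fold or more. Of 25 genes for ribosome-bound factors, 7 were compared, with a median of -0.18. SSZ1, which encodes an Hsp70 of the ribosome-associated complex, was 1968 FPKM and 899 FPKM, the 1 member lower by 2-fold or more, and 0 were higher by 2-fold or more. EGD2, which encodes a subunit of the nascent polypeptide-associated complex, was 1251 FPKM and 1853 FPKM. The calls in these 3 lists were 16.7%, 16.7% and 14.3% of the genes compared, against 10.9% of all genes. Over all genes, 8.86% were higher by 2-fold or more. Under equal coding sums the calls of TSR4, MDM20, SSZ1, FPR1 and LST8 were lost, at log2 ratios of -0.59, -0.93, -0.66, -0.94 and -0.55. EGD2 was then higher by 2-fold or more, at 1.03, as were 19.9% of all genes.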

How the data were processed

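Strand-specific RNA sequencing of rRNA-depleted total RNA gave 1 file per strain, with a name and a value on each of 3146 rows. The deposited values were taken as FPKM, because Cuffdiff 2.1.1 is named in the submitters' processing notes and the values are neither whole nor bounded like CPM or TPM. The same notes give sacCer3, the build that R64 corresponds to. The aligner, annotation, read length, use of strand, library scaling and combination of replicates are not given in those notes or the labels. Without a known depth, no counting interval was computed.

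The 2211 genes compared stand on 1 row, exceed 0 in each strain and average 1 FPKM or more; they were compared by log2 ratio with a pseudocount of 1 FPKM, which understates the change of low genes. Calls were made at 2-fold. Alternatives were other pseudocounts, filters, scalings and rows, and a level-dependent centring on the 200 other genes nearest in mean FPKM, which for the most abundant members reach below 1000 FPKM, since 92 other genes lie above. Introns, coding identity (global alignment), shared 50-base stretches and upstream motifs were computed from the RefSeq R64 genome. The values of 1 member on 2 rows are not reported here. The functions were tested on simulated data. The members and lists were chosen with earlier results of these data known. Any member could be named, and of each other list up to 4 genes by size of the log2 ratio; RAP1 was named after its values were seen. Python 3.11.15, numpy 2.4.6, pandas 2.3.3, Biopython 1.88 and matplotlib 3.10.9 were used.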

Additional observations from a re-analysis of the deposited data

How the results depend on the processing

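Setting both strains to equal sums over protein-coding genes moved the median log2 ratio of the ribosomal protein genes to -0.046, with 4 lower by 2-fold or more and 2 higher by 2-fold or more. Medians were then 0.12 for the large and -0.12 for the small subunit, and -0.12 with and 0.46 without a paralog. Relative to genes of similar level the median was 0.064, with 5 lower by 2-fold or more and 3 higher by 2-fold or more, and the medians of the same 4 groups were 0.22, -0.0099, -0.0099 and 0.57. Without members of at least 95% coding identity to their paralog, an alternative chosen after seeing the data, the median was -0.20 and 3 were lower by 2-fold or more, with medians of -0.0024 for the large subunit and -0.38 for genes with a paralog. Of the 40 members, 10 changed direction with equal sums and 13 relative to genes of similar level. No pseudocount, a pseudocount of 10 FPKM, no filter, a minimum mean of 10 FPKM, equal medians, and adding the names on several rows moved none of these medians by 0.1 or more and changed no member's direction; adding those names gave 11 genes lower by 2-fold or more, and a pseudocount of 10 FPKM gave 9, as RPL7B moved to -0.87. Leaving out members by protein identity was not run, as no protein table was used here. With unknown depth, no detection limit could be set for low members such as RPL7B. No paired analysis was possible because each strain has 1 value column and its columns carry no replicate numbers.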
